A study of Mus musculus with 14 samples.

Results

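The genes described here are the glutathione S-transferases (Gst), UDP-glucuronosyltransferases (Ugt) and sulfotransferases (Sult) of the mouse liver, which are the conjugating enzymes of phase II metabolism. Members were chosen by symbol alone, as the alpha, kappa, mu, omega, pi, theta and zeta Gst classes, the Ugt1, Ugt2 and Ugt3 families and the numbered Sult families, and no measured value entered the choice. This gave 56 of 25212 listed genes, of which 21 were Gst, 20 Ugt and 15 Sult. Reads were present in enough livers for a test of 41 of them, namely 19 Gst, 15 Ugt and 7 Sult, among 14252 tested genes in all. The data are RNA-seq libraries of 14 livers, all from male mice of the C57BL/6 strain on a high-fat diet (HFD). Diet-induced obese (DIO) mice had no surgery (n = 5), GB-IL mice had the gallbladder joined to the ileum with the common bile duct ligated, so that bile entered the distal bowel (n = 4), and RYGB mice had a Roux-en-Y gastric bypass (n = 5). The labels give 8 weeks for all livers, counted from surgery in the operated mice. A figure caption of the study gives 4 weeks after the operation for a part of the liver gene expression. The sources name the livers as separate and say no more of their origin, so p-values measure only the spread between these livers. The livers included no sham-operated, pair-fed or lean group, so that diversion, weight loss and the operation itself cannot be told apart.

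Phase II enzymes attach a polar group to drugs, steroids, bile acids, bilirubin and products of lipid peroxidation. Gst enzymes use glutathione, Ugt enzymes use UDP-glucuronic acid in the endoplasmic reticulum, and Sult enzymes use the sulfate donor PAPS in the cytosol. Hepatocytes hold large amounts of the mRNAs of all 3 families, and many members are under the control of nuclear receptors, of Nrf2 or of the sex-specific pattern of growth hormone.

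Total counts per liver were between 18223135 and 28656631. In a principal component analysis the first component carried 48.5% of the variance, and GB-IL 1 (-134.3), GB-IL 2 (-106.1), GB-IL 3 (-20.1) and RYGB 5 (-17.4) lay outside the DIO range of 21.9 to 45.7, whereas GB-IL 4 (35.3) lay inside it. RYGB 1 (2.14) was also outside, and the other RYGB livers were between 24.3 and 33.8. The summed level of 8 hepatocyte markers was 112037 to 142234 CPM in DIO, 93465 to 130091 CPM in GB-IL and 115113 to 138530 CPM in RYGB. Here CPM are counts brought to a common library size with TMM factors. The lowest sum was in GB-IL 3, the only liver below the DIO range. Markers of cholangiocytes summed to 30.5 to 65.8 CPM in DIO, to 218 to 318 CPM in GB-IL 1 to 3, to 58.1 CPM in GB-IL 4 and to 56.7 to 66.8 CPM in RYGB. Neutrophil markers summed to 4.61 to 9.25 CPM in DIO, to 49.6 to 304 CPM in GB-IL 1 to 3, to 5.68 CPM in GB-IL 4 and to 6.41 to 79.8 CPM in RYGB, with the highest of these in RYGB 5. Macrophage markers reached 2301 CPM in GB-IL and 1060 CPM in RYGB, the latter in RYGB 1, against at most 713 CPM in DIO. Stellate cell markers summed to 189 to 310 CPM in DIO, 245 to 874 CPM in GB-IL and 269 to 623 CPM in RYGB. Their highest sums were in GB-IL 1 and RYGB 5. Endothelial markers summed to 174 to 237 CPM in DIO, 172 to 220 CPM in GB-IL and 150 to 478 CPM in RYGB, highest in RYGB 5. GB-IL 1 alone carried pancreatic markers (1317 CPM, at most 38.2 CPM elsewhere) and skeletal muscle markers (1123 CPM, at most 3.05 CPM elsewhere). In bulk tissue, fewer cells of a type and less RNA per cell cannot be told apart, and the part of these shifts in the results below was not tested.

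In DIO livers a few members made up most of each family. Gsta3, an alpha-class enzyme, contributed 35.5% of the summed Gst CPM and Gstm1, of the mu class, 23.4%, followed by Gstz1 (14.5%), which isomerizes maleylacetoacetate in tyrosine breakdown. Compared per kb of exon, Gstm1 stood highest in the Gst family at 944 ± 204 CPM per kb (SD, n = 5), above Gsta3 at 485 ± 94.0 and Gstp1, the pi-class enzyme, at 333 ± 154. The last 2 overlapped in their spread. Among the Ugt genes, Ugt2b36 (308 ± 31.5 CPM per kb) and Ugt2b5 (272 ± 41.2), which belong to the steroid-conjugating Ugt2b group, overlapped in their SD and lay above Ugt2a3 (127 ± 15.4). The place of Ugt1a1, the bilirubin enzyme, depends on reads in exons common to the Ugt1a genes, since its level was 141 ± 30.4 CPM per kb of its own exons and 57.9 ± 12.5 CPM per kb of all its exons. Sult1a1, which sulfonates phenols, made up 66.5% of the summed Sult CPM and stood at 272 ± 51.8 CPM per kb, and Sult1d1 (63.4 ± 22.8), an enzyme for catecholamines and other amines, came next.

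The Ugt genes as a family were low in 3 GB-IL livers. Summed over its 20 genes, the family stood at 3010, 3191, 2541, 2347 and 2807 CPM in DIO, at 421, 844, 1509 and 3150 CPM in GB-IL and at 2337, 2089, 2871, 2569 and 1195 CPM in RYGB. GB-IL 1 to 3 and RYGB 1, 2 and 5 were thus below every DIO liver, and GB-IL 4 lay within the DIO range. Summed Gst CPM were 5961, 5078, 7291, 5693 and 5677 in DIO, 2114, 3489, 3048 and 5495 in GB-IL and 5544, 4166, 4251, 3888 and 1880 in RYGB. Here GB-IL 1 to 3 and RYGB 2 to 5 were below the DIO range. For the Sult family the highest sums came from GB-IL, with 455, 577, 596, 714 and 737 CPM in DIO, 927, 1830, 682 and 561 CPM in GB-IL and 681, 360, 519, 418 and 518 CPM in RYGB. GB-IL 1 and 2 exceeded the DIO range, and RYGB 2 and 4 were below it.

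**Figure D1:**
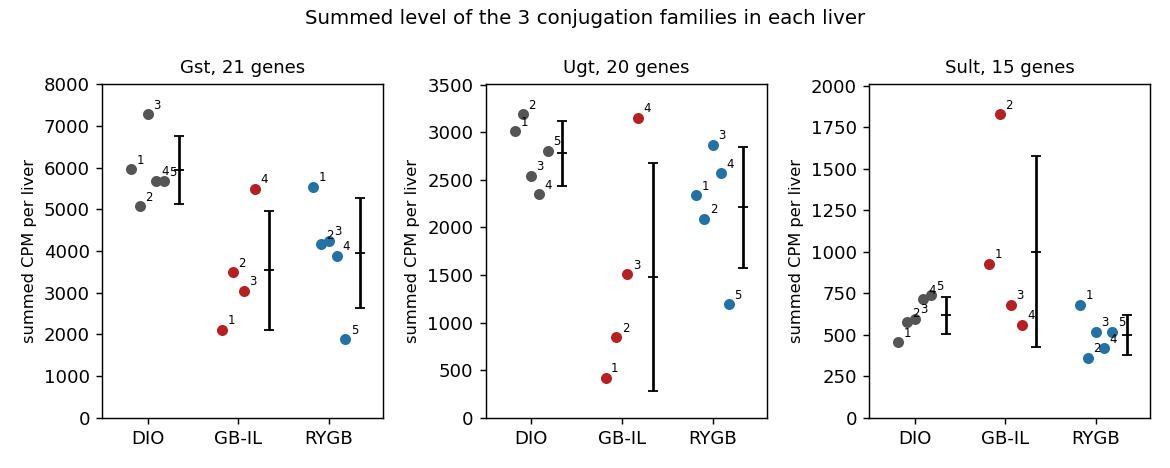
Summed CPM (y axis) of the Gst, Ugt and Sult genes in each liver of the DIO, GB-IL and RYGB groups (x axis), with 1 numbered point per liver and a bar for the mean ± SD. GB-IL 1 to 3 lie below all DIO livers for Gst and Ugt, GB-IL 4 lies within the DIO range for all 3 families, and RYGB 5 is the lowest RYGB liver for Gst and Ugt.

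Counted gene by gene, 32 of the 41 tested members were below every DIO liver in GB-IL 1, 27 in GB-IL 2, 29 in GB-IL 3 and 2 in GB-IL 4. The corresponding shares of the members were 78.0%, 65.9%, 70.7% and 4.88%, beside 37.5%, 35.9%, 18.3% and 14.4% of all tested genes in the same livers. In RYGB 1 to 5 the counts were 14, 22, 14, 20 and 33, that is 34.1%, 53.7%, 34.1%, 48.8% and 80.5% of the members beside 16.1%, 17.7%, 17.6%, 19.1% and 26.1% of all genes. The Gst genes made up 17 of the 33 in RYGB 5 and between 5 and 11 in the other RYGB livers. Of the 15 tested Ugt genes, 14, 13 and 12 were below the DIO range in GB-IL 1, 2 and 3, and 0 in GB-IL 4.

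**Figure D2:**
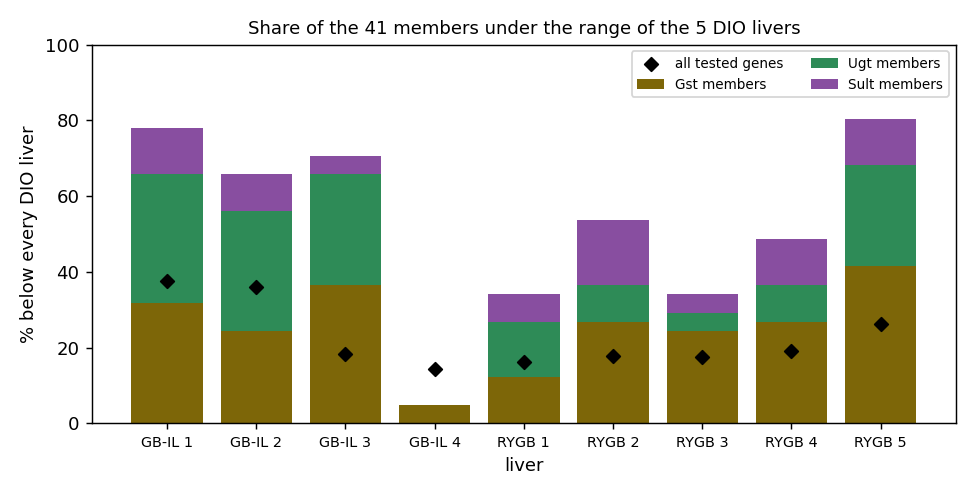
Share of the 41 tested members (y axis, in %) with a CPM below all 5 DIO livers, for each GB-IL and RYGB liver (x axis), stacked by family, with diamonds for the same share among all 14252 tested genes. The stacks exceed the diamonds in 8 of the 9 operated livers and are lower in GB-IL 4.

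Sult1e1, the estrogen sulfotransferase, rose in GB-IL livers and was the 1 member past the threshold in that comparison. It lies on the minus strand of chromosome 5 at chr5:87575969-87591594 (GRCm38), at the end of a stretch of 702 kb that holds 9 Ugt2 and 3 Sult1 genes. The 250 bases before its RefSeq start site (chr5:87591612-87591861, minus strand, GRCm38.p6) are shown because this is the promoter of the gene with the largest fold change among the tested members. Capitals mark a nuclear receptor motif (AGGTCA, here read on the other strand as TGACCT), which begins 113 bases before the start.
Sult1e1 promoter: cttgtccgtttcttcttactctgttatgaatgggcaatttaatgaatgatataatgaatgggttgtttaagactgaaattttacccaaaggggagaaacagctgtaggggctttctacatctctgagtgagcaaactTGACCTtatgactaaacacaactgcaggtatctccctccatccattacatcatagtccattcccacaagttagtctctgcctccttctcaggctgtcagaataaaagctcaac

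Sult1e1 CPM were 0.262, 0.344, 0.254, 0.566 and 1.20 in DIO, 97.4, 441, 3.90 and 0.627 in GB-IL and 0.711, 0.0493, 1.13, 0.0827 and 3.74 in RYGB. GB-IL 1 to 3 and RYGB 5 exceeded all DIO livers, and GB-IL 4 lay inside the DIO range, so that the groups overlapped. The log2 fold change of GB-IL against DIO was 7.99 ± 1.59 (SE), with an adjusted p of 0.0278 in the quasi-likelihood test of edgeR, with p-values adjusted after Benjamini and Hochberg over all tested genes. The call was lost when any single DIO liver was left out (edgeR adjusted p of 0.0648 to 0.0942). Without GB-IL 1, the liver with pancreatic and muscle markers, it was 8.13 with an adjusted p of 0.0602 in the same edgeR test. Without GB-IL 2 it was 5.98 with an adjusted p of 0.0592 in edgeR. GB-IL 2, the liver with the highest Sult1e1, held pancreatic markers at 9.15 CPM and muscle markers at 3.05 CPM. For RYGB against DIO the log2 fold change was 1.15 ± 1.42 (edgeR adjusted p = 0.854). The neighbouring Sult1d1 had 101, 198, 99.0, 160 and 223 CPM in DIO and 95.7, 131, 171 and 131 CPM in GB-IL, with a log2 fold change of -0.24 ± 0.26 (edgeR adjusted p = 0.568).

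Sult2a1 and Sult2a2 are hydroxysteroid sulfotransferases, a class that sulfonates bile acids and dehydroepiandrosterone and that is female-predominant in the mouse liver. Neither passed the filter of the test across genes, which asks for reads in enough livers. Their reads lay almost wholly in GB-IL 1 and 2, the livers with the highest Sult1e1. Sult2a1 had 0 reads in each of the 5 DIO livers, 66, 376, 1 and 3 reads in GB-IL 1 to 4 and 0, 1, 0, 0 and 2 reads in RYGB. Relative to an assumed floor of 3 reads over the DIO group, its rate in GB-IL was 166-fold higher (exact two-sided permutation test on CPM, p = 0.00794, the smallest that 4 against 5 livers can give). With the 0 DIO reads as counted, the Clopper-Pearson 95% lower limit of the ratio of rates was 134. GB-IL 2 held 376 of the 446 reads, and without this liver the rate was 32.6-fold higher over the same floor. The lower limit from 0 DIO reads was then 25.9. Sult2a2 had 60, 338, 1 and 2 reads in GB-IL and 1 read in DIO, a ratio of rates of 447 with a Clopper-Pearson 95% interval of 79.9 to 17717 for counting error only (exact two-sided permutation test, p = 0.0159). Of its reads in GB-IL, all but 3 thus came from GB-IL 1 and 2, and without GB-IL 2 the ratio was 88.2 (95% interval 15.3 to 3536). When no filter on low counts was applied, edgeR gave adjusted p-values of 0.0303 for Sult2a1 and 0.0230 for Sult2a2 in GB-IL against DIO.

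The 2 genes can share reads. Their first coding exons are alike in all 136 bases, and the second coding exon (chr7:13835961-13836169 on the minus strand for Sult2a1 and chr7:13734747-13734955 on the plus strand for Sult2a2, GRCm38) differs at 5 of 209 bases, which are in capitals. This exon is shown because reads can be assigned to one or the other gene only where they cover such bases.
Sult2a1 coding exon 2: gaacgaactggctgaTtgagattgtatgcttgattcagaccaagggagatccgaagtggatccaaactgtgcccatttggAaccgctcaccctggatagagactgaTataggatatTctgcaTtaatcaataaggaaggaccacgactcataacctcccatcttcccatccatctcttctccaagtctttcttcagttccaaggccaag
Sult2a2 coding exon 2: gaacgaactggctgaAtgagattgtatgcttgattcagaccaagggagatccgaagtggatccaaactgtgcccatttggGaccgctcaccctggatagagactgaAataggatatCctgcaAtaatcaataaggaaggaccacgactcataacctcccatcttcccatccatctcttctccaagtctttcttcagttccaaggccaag
Of all stretches of 50 bases in the annotated Sult2a1 transcript, 33.2% occur in another gene's transcripts, and 62.1% of those of Sult2a2 do. The division of reads between the pair is therefore uncertain, whereas none of the Sult1e1 stretches occurs in another gene.

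**Figure D3:**
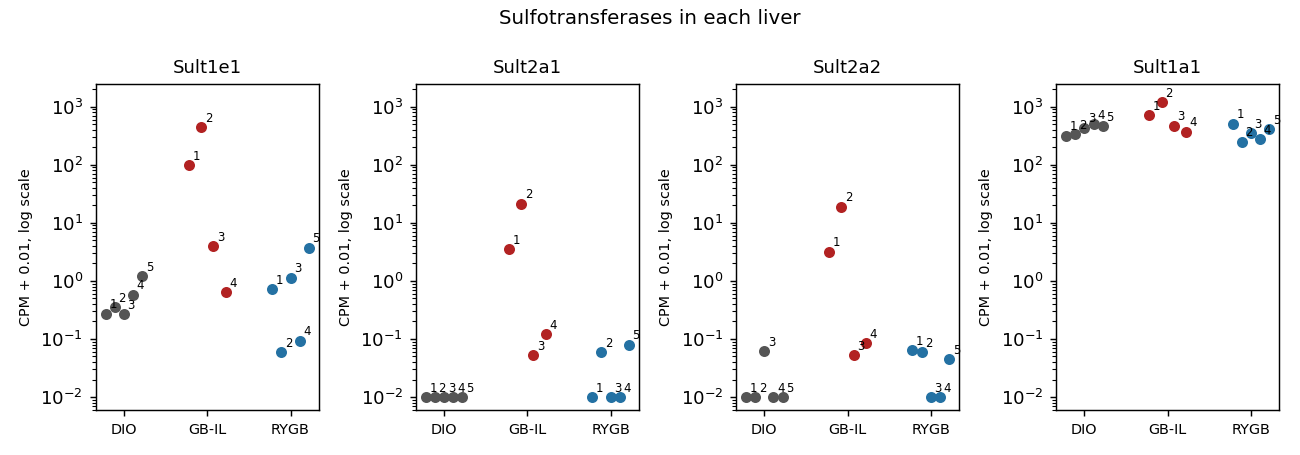
CPM + 0.01 on a log scale (y axis) of Sult1e1, Sult2a1, Sult2a2 and Sult1a1 in each liver of the 3 groups (x axis), with numbered points for the livers and points at 0.01 for livers without a read. GB-IL 1 and 2 stand highest in all 4 plots, and Sult2a1 has no read in any DIO liver.

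The main hepatic sulfotransferase, Sult1a1, was measured at 317, 339, 435, 498 and 458 CPM in DIO, at 717, 1198, 475 and 373 CPM in GB-IL and at 514, 249, 353, 275 and 411 CPM in RYGB. GB-IL 1 and 2 were above all DIO livers, and GB-IL 3 and 4 were not. Its log2 fold change in GB-IL was 0.75 ± 0.32 and did not pass the threshold (edgeR adjusted p = 0.179). Sult1b1, which acts on thyroid hormones, and Sult1c2 had lower values in GB-IL 1 to 3 than in any DIO liver, with log2 fold changes of -0.70 ± 0.43 and -1.35 ± 0.75 (edgeR adjusted p = 0.326 and 0.284). Sult1c2 CPM in RYGB (4.43, 3.30, 2.85, 4.96 and 4.85) were all below those in DIO (5.08, 7.18, 12.1, 5.71 and 6.68), although the log2 fold change of -0.85 ± 0.69 had an edgeR adjusted p of 0.758. Sult2a7, another member of the hydroxysteroid group, likewise had 1.99, 2.21, 5.65, 0.905 and 0.961 CPM in DIO and 0.437, 0.345, 0.563, 0.745 and 0.104 CPM in RYGB, without overlap (log2 fold change -2.41 ± 0.99, edgeR adjusted p = 0.542). In GB-IL it had 166 reads in GB-IL 3 and 0, 2 and 35 in the others, unlike Sult2a1 and Sult2a2.

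For the Ugt genes, 14 of 15 log2 fold changes in GB-IL against DIO were below 0 (93.3%, beside 46.9% of all tested genes). In edgeR 0 passed the threshold, and 4 were lower at an unadjusted p under 0.05 (26.7%, beside 6.43% of all genes). The Ugt median was -0.87, beside 0.04 over all tested genes. Ugt2a3, which glucuronidates bile acids, had 231, 301, 244, 269 and 303 CPM in DIO, 31.3, 50.4, 114 and 266 CPM in GB-IL and 147, 172, 194, 188 and 81.4 CPM in RYGB. All 5 RYGB livers and 3 of the 4 GB-IL livers were below the DIO range, with log2 fold changes of -1.23 ± 0.48 in GB-IL (edgeR adjusted p = 0.151) and -0.79 ± 0.44 in RYGB (edgeR adjusted p = 0.637). Ugt2b1 had 263, 262, 165, 234 and 267 CPM in DIO, 10.4, 11.1, 37.2 and 265 CPM in GB-IL and 144, 209, 424, 403 and 66.2 CPM in RYGB. RYGB livers thus lay on both sides of the DIO range, and GB-IL 4 lay within it.

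Several Ugt2b genes have a like sequence just before their start. The motif AGGTCA, on either strand, is present within 250 bases before the start of 5 of 7 Ugt2b genes, of 10 of the 48 members with a RefSeq promoter (20.8%) and of 15.8% of 27025 genes. In 4 of these genes it lies 22 to 39 bases before the start in a stretch with similar flanks, given here for the last 60 bases before each start, with the motif in capitals (all on the minus strand of chromosome 5, GRCm38.p6).
Ugt2b5, chr5:87140341-87140400: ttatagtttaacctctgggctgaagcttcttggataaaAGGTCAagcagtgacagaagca
Ugt2b36, chr5:87092556-87092615: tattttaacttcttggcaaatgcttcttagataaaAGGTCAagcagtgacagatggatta
Ugt2b37, chr5:87254789-87254848: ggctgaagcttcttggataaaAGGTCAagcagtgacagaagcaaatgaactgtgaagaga
Ugt2b38, chr5:87424204-87424263: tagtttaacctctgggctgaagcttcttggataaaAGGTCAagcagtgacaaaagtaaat
A core of the antioxidant response element (TGACNNNGC, which can overlap TGACCT) was found in 3 of the 48 member promoters (6.25%) and in 11.5% of all genes, and a core of the xenobiotic response element (GCGTG) in 9 (18.8%) and in 30.9% of all genes. Such matches describe the letters and do not show that a factor binds.

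The 4 genes with this stretch differed in level. Ugt2b36 had 678, 649, 677, 522 and 648 CPM in DIO, 81.3, 199, 380 and 752 CPM in GB-IL and 539, 385, 499, 459 and 225 CPM in RYGB. Its GB-IL livers lay on both sides of the DIO range, with GB-IL 1 to 3 below and GB-IL 4 above, and 4 of the 5 RYGB livers were below it (log2 fold changes -0.85 ± 0.46 and -0.59 ± 0.43, edgeR adjusted p = 0.272 and 0.723). Ugt2b5 had 633, 497, 484, 427 and 486 CPM in DIO and 81.6, 318, 218 and 551 CPM in GB-IL (log2 fold change -0.79 ± 0.42, edgeR adjusted p = 0.264). Ugt2b38 was low throughout, with 0.157, 1.82, 0.204, 1.92 and 3.36 CPM in DIO and 0, 0.0565, 0.254 and 0.184 CPM in GB-IL. Its log2 fold change of -3.45 ± 1.10 was the most negative among the members and did not pass (edgeR adjusted p = 0.0924), and 37.4% of its 50-base stretches also occur in other genes. Ugt2b37 was between 0.283 and 3.08 CPM in DIO.

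The 9 Ugt1a genes on chromosome 1 (chr1:88055388-88220002) have separate first exons and common later exons, so that 50.3% to 60.6% of the exon bases of each are also those of the others. How reads in the common exons were assigned is not stated, and values of single Ugt1a genes are uncertain to that extent. Ugt1a1 had 105, 175, 130, 112 and 122 CPM in DIO, 80.0, 50.4, 86.8 and 133 CPM in GB-IL and 154, 109, 135, 118 and 141 CPM in RYGB. GB-IL 1 to 3 were below all DIO livers and the RYGB livers were within the DIO range, with log2 fold changes of -0.56 ± 0.25 (edgeR adjusted p = 0.196) and 0.03 ± 0.23 (edgeR adjusted p = 0.979). Ugt1a6a and Ugt1a6b, which act on small phenols and differ at 26 of 858 bases of their first coding exon, had log2 fold changes of -0.87 ± 0.47 and -0.91 ± 0.42 in GB-IL (edgeR adjusted p = 0.268 and 0.213). Ugt1a5 was the 1 Ugt gene above 0, at 0.38 ± 0.35 (edgeR adjusted p = 0.505). Ugt1a9 was measured at 44.8 CPM in RYGB 1 against 7.63 to 14.1 CPM in DIO, while the other RYGB livers had between 3.25 and 17.1 CPM. Ugt1a7c, which was not tested, had 24, 5, 10 and 11 reads in GB-IL and 5, 2, 0, 2 and 3 in DIO, a ratio of rates of 4.65 (95% interval 2.44 to 9.59, exact two-sided permutation test on CPM, p = 0.00794), and of 3.09 without GB-IL 1 (95% interval 1.51 to 6.72). All 4 GB-IL livers, GB-IL 4 included, were above all DIO livers for Ugt1a7c, with a lowest GB-IL value of 0.282 CPM and a highest DIO value of 0.262 CPM, which rest on 5 reads each. Without a filter on low counts, Ugt1a7c did not pass in GB-IL against DIO (edgeR adjusted p = 0.0900).

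The Ugt3a genes, which transfer other sugars than glucuronic acid, were likewise low in several GB-IL livers. Ugt3a1 had 161, 159, 117, 106 and 135 CPM in DIO, 8.19, 16.3, 50.8 and 154 CPM in GB-IL and 75.4, 92.6, 129, 106 and 20.7 CPM in RYGB. GB-IL 1 to 3 were below the DIO range, as were RYGB 1, 2 and 5. The log2 fold changes were -1.24 ± 0.66 in GB-IL and -0.68 ± 0.61 in RYGB (edgeR adjusted p = 0.267 and 0.783). In RYGB, the Ugt family had 10 of 15 log2 fold changes below 0 (66.7%, beside 48.5% of all genes). Its median was -0.27, beside 0.01 over all genes.

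**Figure D4:**
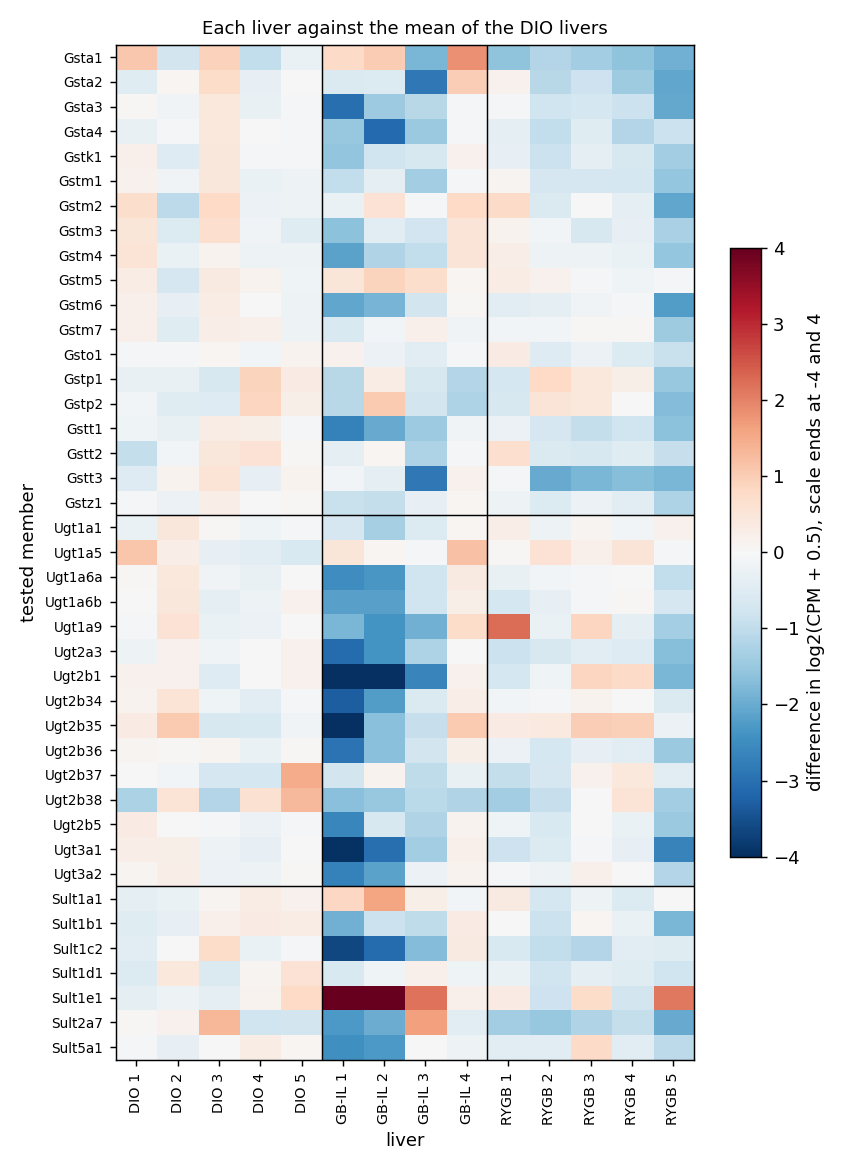
Difference of each liver from the mean of the DIO livers in log2(CPM + 0.5) for the 41 tested members (rows, by family) and the 14 livers (columns), with a colour scale ending at -4 and 4. Most but not all fields of Ugt and Gst genes are blue in GB-IL 1 to 3 and RYGB 5, and the GB-IL 4 column resembles the DIO columns. The Sult1e1 row is red in GB-IL 1 to 3 and RYGB 5.

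In the Gst family, 16 of 19 log2 fold changes in GB-IL (84.2%) were below 0, beside 46.9% of all tested genes. In RYGB 19 of 19 were (100%), beside 48.5%. With edgeR 0 passed the threshold in either comparison. At an unadjusted p under 0.05, 3 Gst genes were lower in GB-IL (15.8%, beside 6.43% of all genes) and 1 was higher (5.26%, beside 16.7%). In RYGB 3 were lower (15.8%, beside 3.36%). The medians were -0.47 in GB-IL and -0.50 in RYGB, beside 0.04 and 0.01 over all genes. Gsta3 had 2156, 1892, 2771, 1696 and 2016 CPM in DIO, 256, 754, 965 and 1955 CPM in GB-IL and 2024, 1206, 1286, 1150 and 506 CPM in RYGB. GB-IL 1 to 3 and RYGB 2 to 5 were below the DIO range, with log2 fold changes of -1.10 ± 0.47 (edgeR adjusted p = 0.182) and -0.77 ± 0.43 (edgeR adjusted p = 0.642). Gstm1 had 1539, 1233, 1852, 1144 and 1187 CPM in DIO, 689, 1060, 517 and 1311 CPM in GB-IL and 1474, 863, 853, 835 and 471 CPM in RYGB, with the same livers below the DIO range (log2 fold changes -0.64 ± 0.33 and -0.63 ± 0.31, edgeR adjusted p = 0.256 and 0.587).

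Gsta4, which conjugates 4-hydroxynonenal, a product of lipid peroxidation, was one of the 5 members with all RYGB livers below all DIO livers. Its CPM were 45.0, 53.3, 73.9, 54.8 and 54.3 in DIO, 19.2, 5.93, 19.6 and 53.9 in GB-IL and 42.4, 27.96, 39.2, 24.6 and 30.4 in RYGB. The log2 fold changes were -1.19 ± 0.43 in GB-IL (edgeR adjusted p = 0.126) and -0.77 ± 0.39 in RYGB (edgeR adjusted p = 0.602). Gstt1, a theta-class enzyme for small halogenated compounds, had 240, 220, 329, 315 and 255 CPM in DIO, 40.9, 65.5, 98.6 and 243 CPM in GB-IL and 228, 170, 140, 156 and 85.9 CPM in RYGB. Apart from GB-IL 4 and RYGB 1, all operated livers were below the DIO range, with log2 fold changes of -1.28 ± 0.42 (edgeR adjusted p = 0.100) and -0.80 ± 0.39 (edgeR adjusted p = 0.579).

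Gsta1 values were mostly lower in RYGB than in GB-IL. The gene had 5.13, 1.13, 4.58, 0.849 and 1.73 CPM in DIO, 4.10, 4.97, 0.254 and 9.001 CPM in GB-IL and 0.383, 0.690, 0.528, 0.372 and 0.208 CPM in RYGB. The RYGB livers did not overlap with DIO, with a log2 fold change of -2.62 ± 0.73 (edgeR adjusted p = 0.370), and 3 of the 4 GB-IL livers were above all RYGB livers. Between GB-IL and RYGB the log2 fold change was 3.39 ± 0.76 (edgeR adjusted p = 0.0792). Gsta2 next to it had -1.03 ± 0.63 in RYGB (edgeR adjusted p = 0.669). The third coding exons of this pair (chr9:78235930-78236062 on the plus strand for Gsta1 and chr9:78337559-78337691 on the minus strand for Gsta2, GRCm38) are shown because they differ at 1 of 133 bases, in capitals.
Gsta1 coding exon 3: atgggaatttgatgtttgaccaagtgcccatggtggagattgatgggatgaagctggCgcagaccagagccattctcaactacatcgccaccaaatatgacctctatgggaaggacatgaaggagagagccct
Gsta2 coding exon 3: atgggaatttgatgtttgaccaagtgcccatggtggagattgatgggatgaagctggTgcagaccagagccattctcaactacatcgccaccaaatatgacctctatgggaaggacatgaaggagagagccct
The first coding exon is alike in all 87 bases, and 90.5% of the 50-base stretches of Gsta1 occur in another gene, mostly Gm3776, so that Gsta1 values rest on few unshared bases and are uncertain.

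Gstt3 had 49.98, 79.3, 106, 57.7 and 79.2 CPM in DIO and 68.6, 17.3, 20.03, 21.8 and 19.7 CPM in RYGB. RYGB 1 lay within the DIO range and the other 4 RYGB livers were below it (log2 fold change -1.34 ± 0.49, edgeR adjusted p = 0.492). Gstm5, at 9.68, 4.67, 10.1, 8.60 and 6.78 CPM in DIO and 10.98, 14.8, 12.8 and 8.08 CPM in GB-IL, was one of 3 Gst genes with a positive log2 fold change in GB-IL (0.55 ± 0.24, edgeR adjusted p = 0.188). Gstp1, which is higher in male than in female mouse liver, had 392, 386, 307, 895 and 601 CPM in DIO, 222, 583, 308 and 211 CPM in GB-IL and 292, 827, 638, 564 and 165 CPM in RYGB. Both operated groups overlapped with DIO, and the log2 fold changes were -0.64 ± 0.46 and -0.05 ± 0.43 (edgeR adjusted p = 0.392 and 0.979). Of its 50-base stretches 33.7% also occur in Gstp2.

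**Figure D5:**
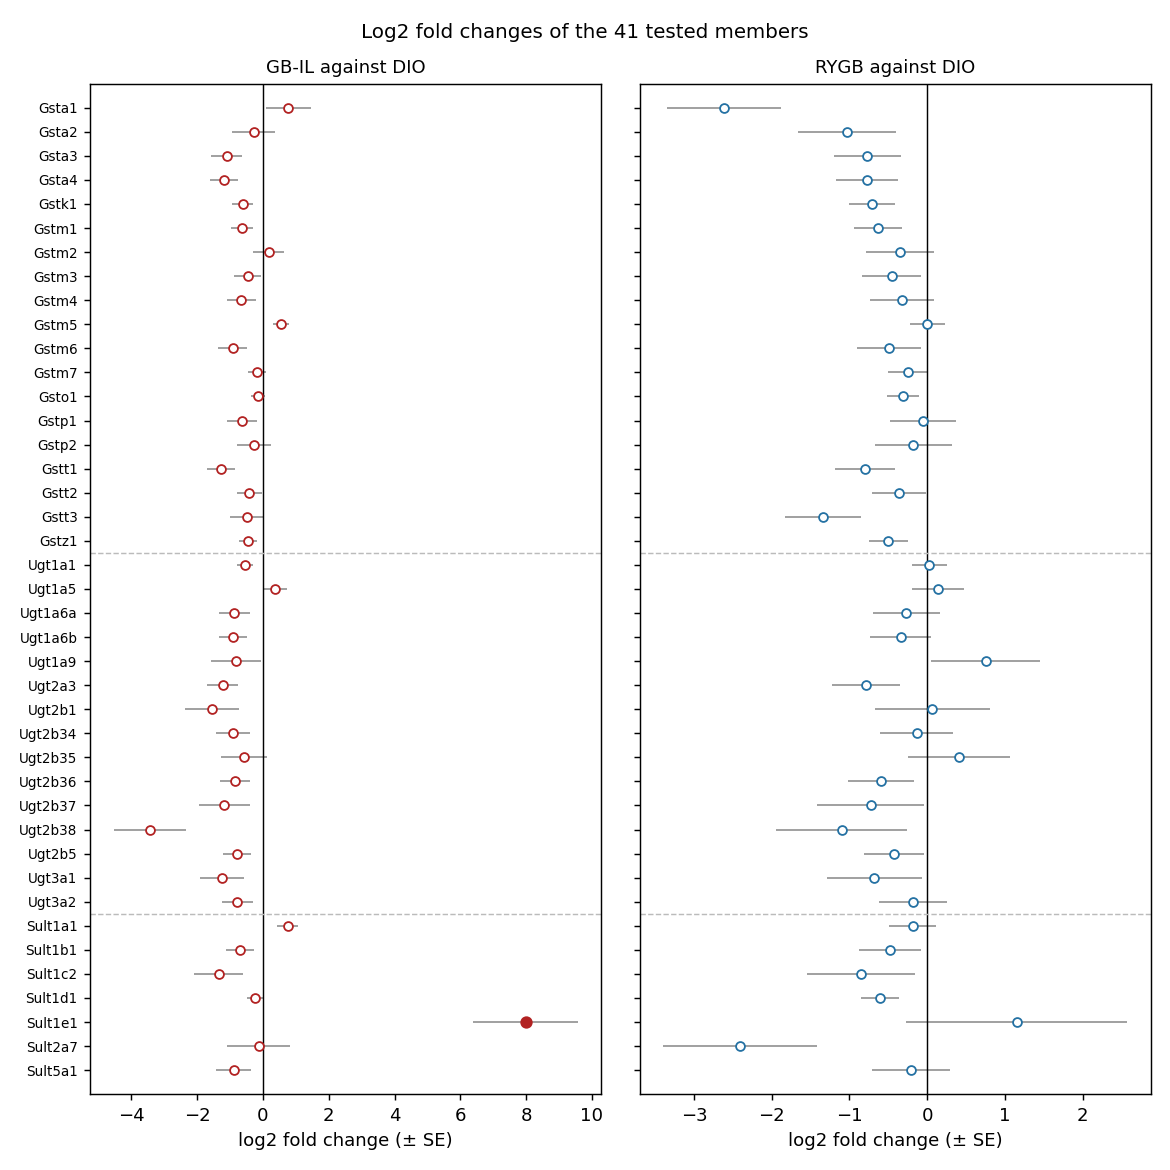
Log2 fold change ± SE (x axis) of the 41 tested members (y axis, Gst, Ugt and Sult from top to bottom) for GB-IL and RYGB against DIO, with a filled point for an adjusted p below 0.05. Sult1e1 in GB-IL is the 1 filled point, and 35 of 41 points lie left of 0 in either panel. The x axes of the panels differ.

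Set against all genes, 1 of the 41 members rose in GB-IL (2.44%), while 3.15% of all tested genes rose, and 0 members fell, while 0.112% of all tested genes fell. At an unadjusted p under 0.05, 3 members were higher (Gstm5, Sult1a1 and Sult1e1, 7.32%, beside 16.7% of all genes) and 7 were lower (17.1%, beside 6.43% of all genes). DESeq2 called 1 member higher and 2 lower, while calling 7.81% of all genes higher and 1.31% lower. With voom 4 members were lower, and 0.554% of all genes were. Without a filter on low counts edgeR called 3 of 56 members higher, Sult2a1 and Sult2a2 among them, and 2.07% of all genes. The 7 members were Gsta3, Gsta4, Gstt1, Ugt1a1, Ugt1a6b, Ugt2a3 and Ugt2b38. None of the tested members had all GB-IL livers above or all below the DIO livers, as 2.67% and 1.51% of all genes did. Log2 fold changes were below 0 for 35 of 41 members (85.4%) and for 46.9% of all genes.

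In RYGB, 0 of the 41 members and 0% of all tested genes passed the edgeR threshold in either direction. DESeq2 called 1 member lower (Gsta1, 0.233% of all genes were called lower), and voom with quality weights called 8 members lower, while calling 5.77% of all genes lower. At an unadjusted p under 0.05, 0 members were higher (5.35% of all genes) and 5 were lower (12.2%, beside 3.36% of all genes), namely Gsta1, Gstk1, Gstt3, Sult1d1 and Sult2a7. The RYGB livers were all below the DIO livers for Gsta1, Gsta4, Sult1c2, Sult2a7 and Ugt2a3, which is 12.2% of the members and 1.66% of all genes. Again 35 of 41 log2 fold changes (85.4%) were below 0, beside 48.5% of all genes. The GB-IL and RYGB comparisons share the DIO livers.

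Between GB-IL and RYGB, 0 members and 0% of all genes passed in edgeR, and DESeq2 called 2 members higher in GB-IL (Gsta1 and Sult1e1) as well as 4.61% of all genes. Without a filter on low counts edgeR called 1 member higher (Sult2a2) and 0.199% of all genes. At an unadjusted p under 0.05, 5 members were higher in GB-IL (12.2%, beside 15.3% of all genes) and 2 were lower (4.88%, beside 6.77%). The higher ones were Gsta1, Gstm5, Sult1a1, Sult1e1 and Sult2a7, and the lower ones Ugt1a1 and Ugt2b38. The median log2 fold change of the Ugt genes was -0.59, and that of the Gst genes -0.01, beside 0.03 over all genes.

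The count of members called depended on GB-IL 4. This liver is singled out because its own member values were close to DIO. The calls without it follow partly from that choice and are given as description only. With all GB-IL livers included, 0 members were called lower. Without GB-IL 4, 22 of 42 tested members passed in GB-IL against DIO. Of these, 3 rose (Gstm5, Sult1a1 and Sult1e1, 7.14%, beside 15.4% of all genes) and 19 fell (45.2%, beside 9.27% of all genes). The members that fell were 11 of 15 Ugt genes, 6 of 19 Gst genes and 2 of 8 Sult genes, with log2 fold changes such as -3.61 ± 0.63 for Ugt2b1 (edgeR adjusted p = 0.00216), -2.05 ± 0.39 for Ugt2a3 (edgeR adjusted p = 0.00322) and -1.92 ± 0.34 for Gsta4 (edgeR adjusted p = 0.00243). Against RYGB, 3 members rose without GB-IL 4 (7.14%, beside 13.4% of all genes) and 13 fell (31.0%, beside 8.09%). With GB-IL 4 included and any of the 5 DIO livers, GB-IL 1 or GB-IL 2 left out, 0 members passed in GB-IL against DIO.

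Members that did not pass the filter of the test were mostly near 0 in all groups. Sult2b1, which sulfonates cholesterol and oxysterols, had 21, 5, 3 and 1 reads in GB-IL and 1, 2, 0, 0 and 2 in DIO, a ratio of rates of 6.70 (95% interval 2.57 to 22.1, exact two-sided permutation test, p = 0.0397), and of 2.57 without GB-IL 1 (95% interval 0.773 to 9.75). Without a filter on low counts, Sult2b1 did not pass in GB-IL against DIO (edgeR adjusted p = 0.153). Sult3a1, which acts on amines, had 49 reads in RYGB 1 and 14 in RYGB 5, at most 1 in the other RYGB livers and 7 in all DIO livers together (exact two-sided permutation test, p = 0.413). Over the same livers Ugt1a10 had 18 reads in GB-IL and 44 in DIO, a ratio of 0.457 (95% interval 0.248 to 0.806), with an exact permutation p of 0.0635. Gstt4 and Sult2a3 were without reads in DIO and RYGB and had 1 and 2 reads in GB-IL. Sult2a5 had 5 reads in GB-IL and none elsewhere, and Ugt1a8 had 2 reads in DIO and none elsewhere. Gsto2, Sult4a1, Sult6b1, Ugt1a2 and Ugt2a1 had at most 33 reads in any group, with a smallest exact permutation p of 0.151.

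Genes tied to the donors of conjugation were also counted, and not all of them supply a donor, since some act in its breakdown or use. Of all tested genes, 16.7% were higher and 6.43% lower at an unadjusted p under 0.05 in GB-IL, and 5.35% and 3.36% in RYGB. For UDP-glucuronic acid, 0 of 4 tested genes passed in GB-IL or RYGB with edgeR or had an unadjusted p under 0.05, with median log2 fold changes of -0.38 and -0.05. Slc35b1 had the smallest p (log2 fold change 0.50 in GB-IL, edgeR adjusted p = 0.242). For PAPS, 0 of 9 tested genes passed, and 1 was higher and 2 were lower at an unadjusted p under 0.05 in GB-IL, where the median was -0.34. Slc35b3, a PAPS transporter, was at 0.70 (edgeR adjusted p = 0.0933). For glutathione, 0 of 11 tested genes passed and 3 were higher at an unadjusted p under 0.05 in GB-IL, with a median of 0.04. Slc7a11, the cystine importer, was at 4.73, 5.08, 1.06 and 0.406 CPM in GB-IL against 0.157 to 1.11 CPM in DIO (log2 fold change 2.42, edgeR adjusted p = 0.0537).

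Other glutathione transferases and related proteins, which the symbols of the classes above do not cover, had 6 tested genes. Of these, 2 rose in GB-IL, beside 3.15% of all tested genes, with a median over the 6 of -0.05. The genes that rose were Clic1 (log2 fold change 1.15, edgeR adjusted p = 0.0278), mainly known as a chloride channel protein, and Hpgds (1.26, edgeR adjusted p = 0.0320), the sigma-class transferase and a prostaglandin D synthase of immune cells. In RYGB 0 of these 6 passed, and 2 were higher at an unadjusted p under 0.05, beside 5.35% of all tested genes. Summed neutrophil markers were above the DIO range in GB-IL 1 to 3, summed macrophage markers in GB-IL 2 to 4, and their part in Clic1 and Hpgds was not tested.

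Among enzymes of other conjugations, such as methylation, acetylation and amino acid conjugation, 0 of 15 passed in either comparison. Below 0 were 12 in GB-IL, beside 46.9% of all tested genes, and 14 in RYGB, beside 48.5% (medians -0.44 and -0.43). Nnmt, which methylates nicotinamide, had the smallest p (1.57 in GB-IL, edgeR adjusted p = 0.0916). Of the hydrolases that split conjugates, epoxides or, as the carboxylesterases Ces1g, Ces2a and Ces3a, other esters, 0 of 8 passed (median -0.98 in GB-IL). At an unadjusted p under 0.05 in GB-IL, 4 were lower, beside 6.43% of all tested genes, and 1 was higher, beside 16.7%. The lower ones were Arsa, Ces2a, Ephx1 and Ephx2. The higher one was Gusb, the beta-glucuronidase that splits glucuronides, at 41.2, 55.7, 50.3 and 30.9 CPM in GB-IL against 29.6 to 36.2 CPM in DIO (0.41 ± 0.18, edgeR adjusted p = 0.187). Ephx2, the soluble epoxide hydrolase, was at -1.01 in GB-IL (edgeR adjusted p = 0.0674) and -0.64 in RYGB (edgeR adjusted p = 0.547). None of 6 exporters of conjugates passed (median -0.48 in GB-IL), with Abcc4 at 1.23 (edgeR adjusted p = 0.0598).

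Of 15 regulators of these genes, 0 passed in edgeR (median -0.52 in GB-IL). At an unadjusted p under 0.05 in GB-IL, 6 were lower, beside 6.43% of all tested genes. Nfe2l2, which encodes Nrf2, was at 0.06 (edgeR adjusted p = 0.864). Of 7 tested Nrf2 targets outside the 3 families, 1 rose in GB-IL, beside 3.15% of all tested genes. It was Hmox1, which degrades heme (1.76, edgeR adjusted p = 0.0437), and the median over the 7 was 0.67. In RYGB 0 of 7 passed, and the median was 0.13.

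Sex-biased liver genes were counted because Sult1e1, Sult2a and several Gst and Ugt genes differ between the sexes in mice. All 12 male-biased genes had log2 fold changes below 0 in GB-IL, beside 46.9% of all tested genes, with a median of -2.23. In edgeR 0 passed, and 4 were lower at an unadjusted p under 0.05, beside 6.43% of all genes. In RYGB, 6 of 12 were below 0, beside 48.5% of all genes, with a median of 0.09. Hsd3b5, a male-specific steroid dehydrogenase, was at -4.08 in GB-IL (edgeR adjusted p = 0.123) and 1.72 in RYGB (edgeR adjusted p = 0.707). Of 7 tested female-biased genes, 0 passed in either comparison, with medians of -0.72 in GB-IL and 1.51 in RYGB.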

How the data were processed

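Liver RNA-seq of 14 mice in 3 groups (DIO, GB-IL and RYGB) was analysed. The authors deposited 1 table of raw read counts for 25212 genes, made with TopHat2 and HTSeq on mm10 per the labels (hg19 is also listed). No source used here states tool versions, annotation, strand or multi-mapping settings. Of 2 library kits in the labels, a poly(A) and a total RNA kit, neither is assigned to livers, so kit and group cannot be told apart.

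Symbols were matched to GENCODE M21 (GRCm38) for 24701 genes and all 56 members, and 48 members had a RefSeq promoter (GRCm38.p6). Counts were scaled by TMM, filtered with filterByExpr and tested in 1 fit of all livers with the quasi-likelihood test of edgeR 4.0.16 (R 4.3.3), with Benjamini-Hochberg adjustment and a threshold of 0.05. The scripts were tested on simulated data. Members outside the test were compared by exact permutation of CPM, with Clopper-Pearson 95% intervals, which cover counting error only. These permutation p-values were not adjusted for the number of members. Stretches of 50 bases were compared between annotated transcripts. Members are named in full where they had the smallest p or did not overlap between groups, with the most abundant and the untested members, and with further members and list genes chosen after their values were seen. The members and lists were chosen with earlier results of these data known. Alternatives were RLE scaling, other filters, DESeq2 1.42.0, limma 3.58.1 (voom), a fit of the compared groups, a replicate block and leaving out each liver. Some list genes are not reported here by name.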

Additional observations from a re-analysis of the deposited data

Results flagged for a closer look

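Among 57 groups of livers examined over 19 named members, 3 had 1 liver far from the others, and about 1 in 20 is expected by chance. Gstt3 was at 68.6 CPM in RYGB 1, above the other RYGB livers. Sult2a7 was at 5.65 CPM in DIO 3, above the other DIO livers. Ugt2b36 was at 522 CPM in DIO 4, below the other DIO livers.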

How the results depend on the processing

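The number of members called in GB-IL against DIO, 1 in the analysis described, was 3 without a filter on low counts (Sult1e1, Sult2a1 and Sult2a2), 3 with DESeq2 (Sult1e1 higher, Gstt1 and Ugt2b38 lower), 4 with voom (Gsta4, Gstt1, Ugt2a3 and Ugt2b1, all lower), 0 in a fit of the 2 compared groups and between 0 and 22 when 1 liver was left out. In RYGB against DIO it was 0, 1 with DESeq2 (Gsta1) and 8 with voom (Gsta3, Gsta4, Gstk1, Gstt1, Gstt3, Gstz1, Sult1d1 and Ugt2a3, all lower). In GB-IL against RYGB it was 0, 1 without a filter (Sult2a2), 2 with DESeq2 (Gsta1 and Sult1e1) and between 0 and 16 when 1 liver was left out. For Sult1e1 in GB-IL, voom gave a log2 fold change of 3.22 with an adjusted p of 0.156, the fit of the 2 groups an edgeR adjusted p of 0.0844 and leaving out a DIO liver edgeR adjusted p-values of 0.0648 to 0.0942, all in the same direction. RLE scaling and a minimum mean of 50 counts gave the same counts of members called as the analysis described. The causes of these differences were not tested. With a replicate block, 0 members were called in each of the 3 comparisons, and Sult1e1 had an edgeR adjusted p of 0.0886. The labels give the number only as a name. Correlations of same-numbered livers were between -0.38 and 0.38, and 1 of 14 livers correlated best with its own number. With so few livers, these values cannot show whether equal numbers mark something shared. Depth limits the members outside the test, such as Ugt1a8 with 2 reads in DIO and 0 elsewhere. Leaving out each GB-IL liver for 4 untested members, and counting all exons per kb, were chosen after seeing the data.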
